A study of Mus musculus with 8 samples.

Results

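The annexins are a family of proteins that bind phospholipid membranes when calcium rises, through a conserved core of annexin repeats that follows a variable N-terminal tail. They are known for sealing wounded plasma membranes, for linking membranes to actin and vesicles, and for limiting inflammation. The 10 family members followed here were chosen by gene symbol (Anxa1, Anxa2, Anxa3, Anxa4, Anxa5, Anxa6, Anxa8, Anxa10, Anxa11 and Anxa13) and are 10 of the 53379 genes listed in each library. Their RNA was measured by sequencing of epithelial cells from the distal colon of C57BL/6 mice.

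The 8 libraries form 4 groups of 2. KO (RORaΔIEC) mice lack Rora, a nuclear receptor gene, in the intestinal epithelium, and WT (RORaf/f) mice carry floxed Rora alleles. DSS-treated KO and DSS-treated WT mice drank dextran sulfate sodium, a polymer that wounds the colon lining, at 2% (w/v) over 5 days and then plain water over 3 days. Untreated KO and untreated WT mice are their controls. The Cre driver, the age of the animals and whether the replicates came from separate animals are not given in the sources used here. P-values therefore measure the spread between these samples only. In the edgeR fit, the common coefficient of variation between replicates beyond counting error was 3.49%.

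Depth ran from 15971642 to 20418466 expected counts per library. All 10 colon epithelium markers (Epcam, Cdh1, keratins and others) had counts in every library, with sums of 20469 and 21459 counts-per-million (CPM) in DSS-treated KO, 19565 and 19645 in DSS-treated WT, with 22940 and 23103 in untreated KO, and 20595 and 20609 in untreated WT. Rora itself had 8 and 5 counts in DSS-treated KO, 16 and 14 in DSS-treated WT, with 4 and 3 in untreated KO, and 12 and 6 in untreated WT. The lower Rora count in KO passed the test under DSS (log2 fold-change = -1.24 ± 0.45, SE; edgeR adjusted p = 0.0425) and not without DSS (-1.10 ± 0.58, adjusted p = 0.238). Rora passed the filter on low counts only through DSS-treated WT, where it was highest, so these p-values are no independent support for its loss. In bulk RNA of this kind, fewer cells of a type and less RNA per cell cannot be told apart.

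Of the 10 annexin genes, 9 passed the filter on low counts. The exception was Anxa10, an annexin best known from stomach epithelium, with 1 count in 1 untreated WT library and 0 in the other 7 libraries. A count of 0 allows up to 3 counts, which is 0.150 to 0.191 CPM depending on the library.

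Per length, Anxa2 stood first among the annexins in every group. Anxa2 is the annexin that pairs with S100a10 at the inner face of the plasma membrane. It had 999 and 1077 transcripts-per-million (TPM) in DSS-treated KO, 721 and 700.3 TPM in DSS-treated WT, 890 and 890 TPM in untreated KO, and 650 and 644 TPM in untreated WT, so the KO libraries were above the WT libraries under both treatments. The next 5 genes by TPM were Anxa3, Anxa4, Anxa1, Anxa11 and Anxa8 in every group, between 114 and 299 TPM, in an order that differed from group to group. Anxa5 followed at 23.3 to 60.7 TPM, Anxa13 at 7.85 to 13.4 TPM and Anxa6 at 1.92 to 3.95 TPM. Most neighbours in this order did not overlap between their libraries. The exceptions were Anxa3 (240.5 ± 8.91 TPM, SD, n = 2) and Anxa1 (236 ± 7.05 TPM) in DSS-treated KO, and Anxa1 (214 ± 7.59 TPM) and Anxa11 (209 ± 0.530 TPM) in untreated KO.

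**Figure D1:**
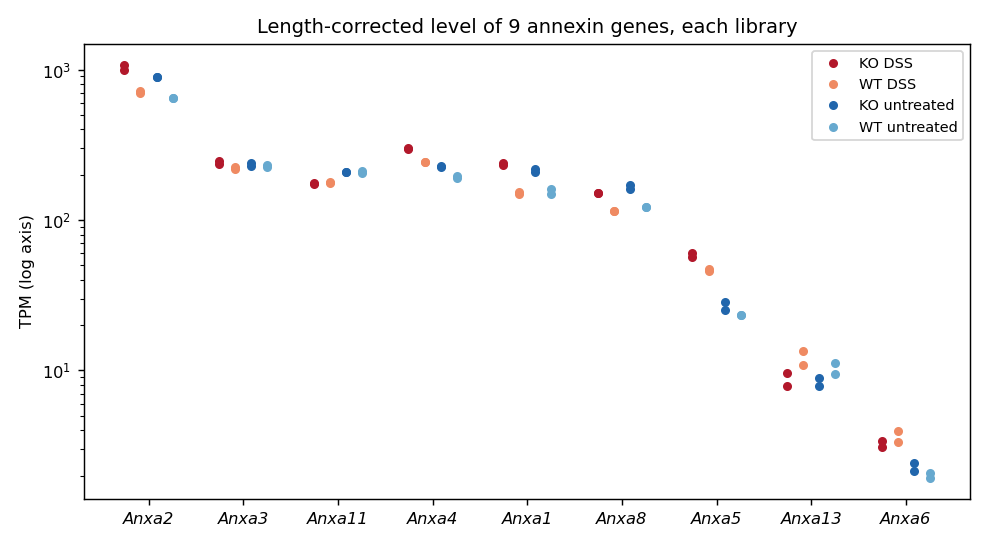
TPM of 9 annexin genes on a log axis, with 1 point per library and 4 groups per gene (Anxa10 is at or near 0 and is left out). Anxa2 lies between 644 and 1077 TPM, 5 genes lie between 114 and 299 TPM, and Anxa5, Anxa13 and Anxa6 lie below them.

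The 10 genes together took 0.216% and 0.226% of all TPM in DSS-treated KO, 0.169% and 0.167% in DSS-treated WT, with 0.198% and 0.197% in untreated KO, and 0.160% and 0.158% in untreated WT. Anxa2 made up 46.4% and 47.6% of that sum in DSS-treated KO, 42.7% and 41.9% in DSS-treated WT, with 44.8% and 45.2% in untreated KO, and 40.7% and 40.7% in untreated WT. The sum was higher in KO than in WT on both the TPM and the CPM scale. Between DSS-treated and untreated WT it went opposite ways on the 2 scales, with CPM sums of 1778 and 1789 under DSS against 1884 and 1830 without.

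KO was set against WT under DSS to see how the annexins stood in injured epithelium with and without Rora. Anxa1, Anxa2, Anxa8, Anxa5 and Anxa4 were higher in KO and Anxa13 was lower. These are 5 higher and 1 lower of 9 tested, where 39.1% of all 14991 genes tested passed the same threshold in either direction (adjusted p under 0.05), 21.3% as higher and 17.7% as lower. The median log2 fold-change of the 9 was 0.15, against -0.01 over all genes tested. The 2 DSS-treated KO libraries differed from each other more than the other pairs did, as a chi-square of their counts over genes, divided by its degrees of freedom, was 4.85, against 1.80 in DSS-treated WT, 1.29 in untreated KO and 2.13 in untreated WT. With any 1 library left out, the KO rises under DSS ran from 0.56 to 0.66 for Anxa1, from 0.44 to 0.58 for Anxa2 and from 0.34 to 0.35 for Anxa8, and all 3 still passed.

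Anxa1 (ENSMUSG00000024659.14, chromosome 19, 20373428 to 20390944, minus strand) encodes a protein that is induced by glucocorticoids, whose N-terminal peptide engages formyl peptide receptors and restrains neutrophil recruitment. It had 231 and 248 CPM in DSS-treated KO, against 156 and 158 CPM in DSS-treated WT. Both KO libraries were above both WT libraries, and the log2 fold-change was 0.61 ± 0.05 (SE, adjusted p = 6.12e-07, edgeR quasi-likelihood test with Benjamini-Hochberg adjustment, as for all adjusted p-values here). This was the largest rise among the 9 genes in this comparison.

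Anxa2 (ENSMUSG00000032231.14, chromosome 9, 69453620 to 69491795, plus strand) had 874 and 965 CPM in DSS-treated KO, against 649 and 642 CPM in DSS-treated WT. The groups did not overlap (log2 fold-change = 0.51 ± 0.05, adjusted p = 8.36e-07). Anxa8 (ENSMUSG00000021950.15, chromosome 14, 34085981 to 34100571, plus strand), an annexin associated with fetal-like and regenerating gut epithelium, had 181 and 183 CPM in DSS-treated KO, against 142 and 143 CPM in DSS-treated WT. The difference was again larger than the spread between libraries (log2 fold-change = 0.35 ± 0.04, adjusted p = 2.63e-05).

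Anxa5 (ENSMUSG00000027712.13, chromosome 3, 36448923 to 36475894, minus strand), which coats membranes that expose phosphatidylserine, had 62.0 and 65.2 CPM in DSS-treated KO, against 51.9 and 53.7 CPM in DSS-treated WT (log2 fold-change = 0.27 ± 0.06, adjusted p = 0.00193). Anxa4 (ENSMUSG00000029994.17, chromosome 6, 86736840 to 86793584, minus strand), an annexin of secretory and absorptive epithelia, had 327 and 333 CPM in DSS-treated KO, against 297 and 298 CPM in DSS-treated WT. Its step was small and the groups did not overlap (log2 fold-change = 0.15 ± 0.04, adjusted p = 0.00717), and the call was lost without DSS-treated WT replicate 1.

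Anxa13 (ENSMUSG00000055114.8, chromosome 15, 58341471 to 58389244, minus strand), an annexin largely restricted to intestinal epithelium, went the other way. It had 6.85 and 5.78 CPM in DSS-treated KO, against 8.05 and 10.1 CPM in DSS-treated WT (log2 fold-change = -0.52 ± 0.15, adjusted p = 0.0141). The call was lost by the DESeq2 Wald test and on leaving out replicate 2 of DSS-treated KO (-0.40) or of DSS-treated WT (-0.35). Anxa3, Anxa11 and Anxa6 did not pass the test, with log2 fold-changes of 0.12 ± 0.05 (adjusted p = 0.0501), -0.08 ± 0.04 (adjusted p = 0.110) and -0.21 ± 0.15 (adjusted p = 0.288). Anxa3 passed (0.16) without DSS-treated KO replicate 1 and with library totals in place of TMM factors (0.14), and Anxa11 passed (-0.11) without DSS-treated KO replicate 2.

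**Figure D2:**
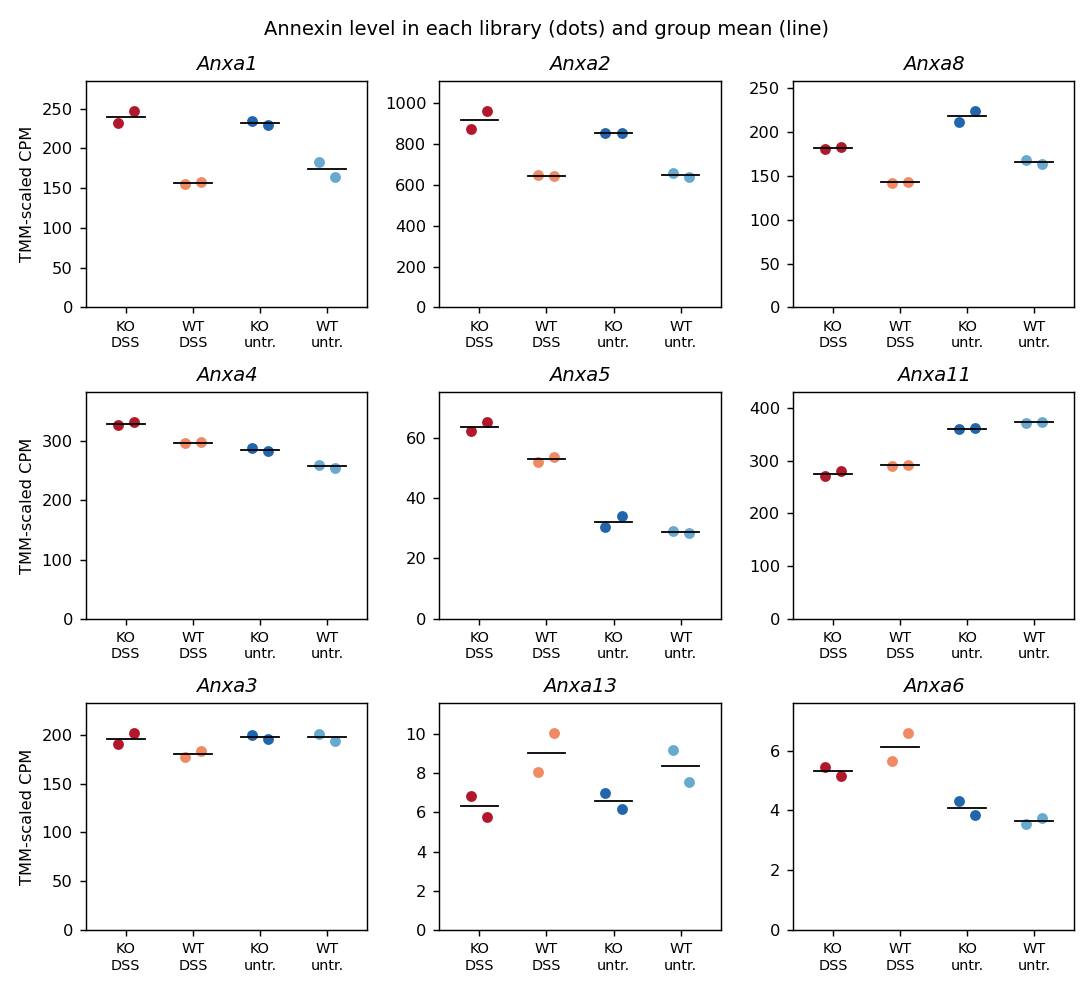
TMM-scaled CPM of 9 annexin genes, with 1 point per library and a line at each group mean (2 libraries a group). Anxa1, Anxa2 and Anxa8 are higher in KO than in WT in both treatments, and Anxa5 is higher under DSS in both genotypes.

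KO was also set against WT without DSS, to see whether the annexins differed before any injury. Anxa8, Anxa2, Anxa1 and Anxa4 were higher in KO and 0 of 9 were lower, where 9.19% of all genes tested were called higher and 6.22% lower (15.4% in either direction). At an unadjusted p under 0.05, 1 annexin was lower (Anxa13), and the DESeq2 Wald test also called 0 lower. The median log2 fold-change of the 9 was 0.16, against 0.01 over all genes tested.

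Anxa8 had 212 and 225 CPM in untreated KO, against 168 and 164 CPM in untreated WT (log2 fold-change = 0.39 ± 0.04, adjusted p = 3.39e-05). Anxa2 had 855 and 854 CPM in untreated KO, against 657 and 638 CPM in untreated WT (0.40 ± 0.05, adjusted p = 4.13e-05). For Anxa1 the values were 234 and 230.0 CPM in untreated KO, against 183 and 165 CPM in untreated WT (0.42 ± 0.05, adjusted p = 9.83e-05). In all 3 genes both KO libraries lay above both WT libraries. The same held for Anxa5 and Anxa6, which did not pass, so this order alone does not set the 3 genes apart. In Anxa11 and Anxa13, which did not pass either, both KO libraries lay below both WT libraries. The share of all genes with such a separation was not counted.

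Anxa4 had 288 and 284 CPM in untreated KO, against 261 and 255 CPM in untreated WT (log2 fold-change = 0.15 ± 0.04, adjusted p = 0.0201). That call was lost when any 1 of the 4 untreated libraries was left out, although the value stayed between 0.13 and 0.16. Anxa5 (0.16 ± 0.07, adjusted p = 0.141), Anxa6 (0.16 ± 0.17, adjusted p = 0.583), Anxa13 (-0.35 ± 0.15, adjusted p = 0.144), Anxa11 (-0.05 ± 0.04, adjusted p = 0.486) and Anxa3 (0.00 ± 0.05, adjusted p = 0.975) did not pass.

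The DNA before the start sites of Anxa2, Anxa8 and Anxa5 is shown here so that the sequence can be read beside their values. Anxa2 and Anxa8 were higher in KO in both treatments, and Anxa5 had the largest DSS rise among the members tested. RefSeq promoters on GRCm38.p6 give 250 bases before the RefSeq start, which need not be the GENCODE gene start used for the positions in this text. The RefSeq start of Anxa2 lies 63 bases and that of Anxa5 lies 7 bases inside the GENCODE gene, and those bases are left out. Each line runs 5′ to 3′ on the gene's own strand, and capitals mark a motif match. The Anxa1 window lies wholly within an exon of Anxa1 in GENCODE and is not printed.
Anxa2, chr9:69453433-69453619, plus strand: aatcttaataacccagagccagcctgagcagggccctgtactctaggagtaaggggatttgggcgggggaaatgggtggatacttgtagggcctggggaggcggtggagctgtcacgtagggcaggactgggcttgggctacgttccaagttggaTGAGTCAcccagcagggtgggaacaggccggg
Anxa8, chr14:34085729-34085978, plus strand: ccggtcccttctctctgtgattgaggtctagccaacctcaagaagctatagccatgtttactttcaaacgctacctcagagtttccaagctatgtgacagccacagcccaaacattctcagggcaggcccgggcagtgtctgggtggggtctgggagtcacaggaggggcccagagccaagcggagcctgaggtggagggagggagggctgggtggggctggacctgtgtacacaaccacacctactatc
Anxa5, chr3:36475895-36476137, minus strand: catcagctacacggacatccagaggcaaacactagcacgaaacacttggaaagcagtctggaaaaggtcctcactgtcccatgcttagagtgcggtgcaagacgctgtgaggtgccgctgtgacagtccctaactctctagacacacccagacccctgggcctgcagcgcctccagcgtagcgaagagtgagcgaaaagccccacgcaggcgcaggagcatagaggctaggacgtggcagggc

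The RefSeq table held 8 windows of 250 bases for 7 of the 10 annexin genes. Both strands were searched for the half-site of ROR receptors, AGGTCA, for the AP-1 site, TGANTCA, and for the TEAD site, GGAATG, and no matches overlapped. Over all 32851 windows, 14.0% held the ROR half-site, 6.75% the AP-1 site and 12.6% the TEAD site. None of the 8 annexin windows held AGGTCA. Anxa2 had 1 AP-1 match, 32 to 26 bases before its GENCODE start, and Anxa10 had 2. The 1 TEAD match was in the Anxa1 window, within that exon. Anxa8 and Anxa5 had no match. These are matches of letters and not measured binding sites.

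DSS against untreated was then compared within each genotype. In KO, Anxa5 and Anxa4 rose and Anxa11 and Anxa8 fell, which is 2 higher and 2 lower of 9, where 41.6% of all genes tested were called in either direction, 21.7% as higher and 19.8% as lower. In WT, Anxa5, Anxa6 and Anxa4 rose and Anxa11, Anxa8, Anxa1 and Anxa3 fell, which is 3 higher and 4 lower of 9, where 37.2% of all genes tested were called, 18.9% as higher and 18.3% as lower. The medians of the 9 log2 fold-changes were 0.05 in KO and -0.00 in WT, against 0.00 and -0.01 over all genes tested.

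Anxa5 had the largest DSS response among the members tested. It had 62.0 and 65.2 CPM in DSS-treated KO, against 30.3 and 33.9 CPM in untreated KO, a 1.98-fold rise (log2 fold-change = 0.99 ± 0.06, adjusted p = 1.29e-08). It had 51.9 and 53.7 CPM in DSS-treated WT, against 29.0 and 28.4 CPM in untreated WT, a 1.84-fold rise (0.88 ± 0.06, adjusted p = 1.19e-07). All 4 DSS-treated libraries were above all 4 untreated libraries.

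Anxa11 (ENSMUSG00000021866.15, chromosome 14, 25842156 to 25886804, plus strand), which tethers RNA granules to lysosomes in neurons, had the largest fall. It had 270 and 281 CPM in DSS-treated KO, against 361 and 362 CPM in untreated KO (log2 fold-change = -0.39 ± 0.04, adjusted p = 1.84e-06). In WT it had 291 and 293 CPM under DSS, against 372 and 375 CPM without (-0.35 ± 0.04, adjusted p = 9.29e-06). Again the DSS-treated and untreated libraries did not overlap. The expected counts of Anxa11 were not whole, so some of its reads are shared with other genes.

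Anxa8 fell by 0.26 ± 0.04 on the log2 scale in KO (adjusted p = 0.000217) and by 0.22 ± 0.04 in WT (adjusted p = 0.00157). Its level in DSS-treated KO, 181 and 183 CPM, thus stayed above the 168 and 164 CPM of untreated WT. Anxa4 rose by nearly the same step in each genotype, 0.21 ± 0.04 in KO (adjusted p = 0.000658) and 0.21 ± 0.04 in WT (adjusted p = 0.000997).

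Anxa6 (ENSMUSG00000018340.13, chromosome 11, 54979108 to 55033445, minus strand), whose core of annexin repeats is duplicated, was scarce. It had 5.65 and 6.59 CPM in DSS-treated WT, against 3.55 and 3.75 CPM in untreated WT (log2 fold-change = 0.75 ± 0.15, adjusted p = 0.00177). In KO it had 5.47 and 5.15 CPM under DSS, against 4.32 and 3.86 CPM without, and did not pass (0.38 ± 0.16, adjusted p = 0.0720), although it passed (0.43) with library totals in place of TMM factors.

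The small WT falls of Anxa1 (156 and 158 CPM under DSS, against 183 and 165 CPM untreated, log2 fold-change = -0.15 ± 0.05, adjusted p = 0.0426) and Anxa3 (178 and 184 CPM, against 201 and 194 CPM, -0.13 ± 0.05, adjusted p = 0.0375) stood close to the threshold. Both calls were lost with the DESeq2 Wald test, with effective-length offsets, with library totals in place of TMM factors, and without any 1 of DSS-treated WT replicates 1 and 2, untreated KO replicates 1 and 2 and untreated WT replicate 1. Without the last of these the Anxa1 value was -0.07. Anxa3 (ENSMUSG00000029484.12, chromosome 5, 96793339 to 96845966, plus strand) also lost it without untreated WT replicate 2. In KO neither passed under DSS (Anxa1 0.05 ± 0.05, adjusted p = 0.526; Anxa3 -0.01 ± 0.05, adjusted p = 0.854).

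Anxa2 did not pass in either genotype (0.11 ± 0.05 in KO, adjusted p = 0.0778, and -0.00 ± 0.05 in WT, adjusted p = 0.963). In KO the value was 0.18 and passed without DSS-treated KO replicate 1, was 0.033 without DSS-treated KO replicate 2, and it was 0.16 and passed with library totals in place of TMM factors. Anxa13 passed in neither genotype (-0.06 ± 0.16 in KO, adjusted p = 0.802, and 0.11 ± 0.14 in WT, adjusted p = 0.596).

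**Figure D3:**
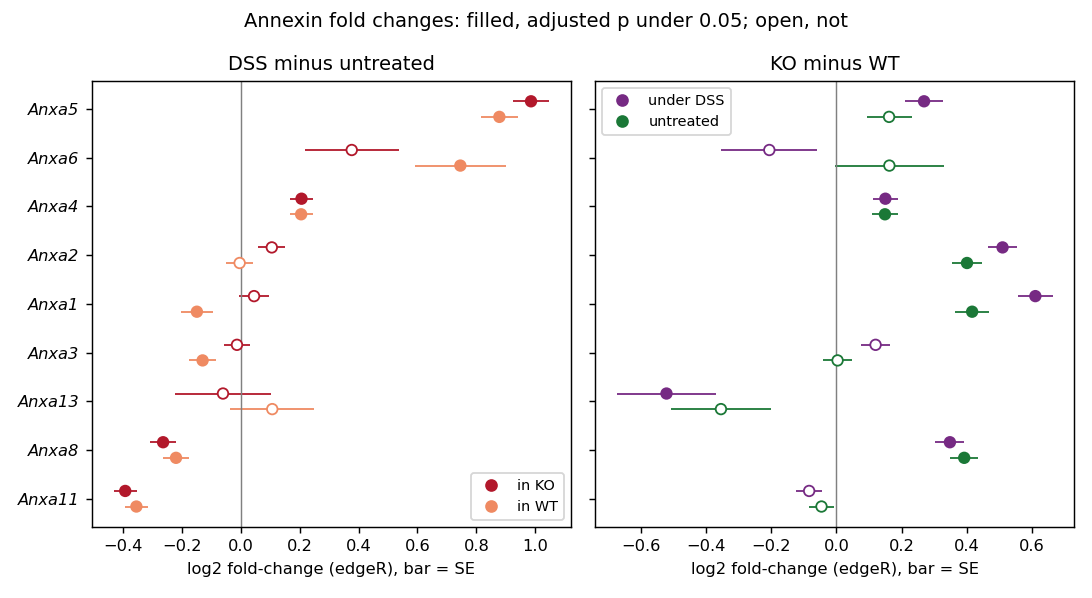
The log2 fold-change of 9 annexin genes (x axis) with its SE, for DSS minus untreated in KO and in WT (left) and for KO minus WT under DSS and untreated (right), with filled points for adjusted p under 0.05. Anxa5 is near 0.99 and 0.88 on the left, and Anxa1, Anxa2 and Anxa8 lie between 0.35 and 0.61 on the right.

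Whether the DSS response differed between the genotypes was tested as an interaction, in which the WT response to DSS is subtracted from the KO response. By edgeR 0 of 9 annexins passed, where 21.4% of all genes tested did. At an unadjusted p under 0.05 there was 1 (Anxa1, 0.19 ± 0.07, adjusted p = 0.0808), and the DESeq2 Wald test called 0. Anxa2 stood at 0.11 ± 0.06 (adjusted p = 0.253), Anxa5 at 0.11 ± 0.09 (adjusted p = 0.435), Anxa6 at -0.37 ± 0.22 (adjusted p = 0.263) and Anxa8 at -0.04 ± 0.06 (adjusted p = 0.671). Without DSS-treated KO replicate 1, 3 passed: Anxa1 (0.25), Anxa2 (0.19) and Anxa3 (0.17). Without DSS-treated KO replicate 2 these were 0.15, 0.036 and 0.073 and did not pass, and leaving out replicate 1 of untreated WT gave 0.11 for Anxa1. Without untreated WT replicate 2, Anxa1 passed (0.27), and it passed with no filter on low counts (0.21). The KO rises with and without DSS come from separate libraries, with 0.61 and 0.42 for Anxa1, 0.51 and 0.40 for Anxa2, 0.35 and 0.39 for Anxa8, and 0.15 and 0.15 for Anxa4.

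S100 proteins are the best known binding partners of annexins. S100a10 holds Anxa2 in a heterotetramer that gathers plasminogen and its activators at the cell surface, and S100a11 binds the N-terminal tail of Anxa1. S100a10 had 315 and 354 CPM in DSS-treated KO, 235 and 243 CPM in DSS-treated WT, 330 and 335 CPM in untreated KO, and 261 and 245 CPM in untreated WT. It was higher in KO under DSS (log2 fold-change = 0.48 ± 0.05, adjusted p = 6.89e-06) and without DSS (0.39 ± 0.05, adjusted p = 0.000190), and it passed for DSS in neither KO (0.01 ± 0.05, adjusted p = 0.885) nor WT (-0.08 ± 0.05, adjusted p = 0.268).

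By the root mean square difference of centred log2 CPM over the 8 libraries, S100a10 was the nearest of 10104 genes to Anxa1 (0.054) and the third nearest to Anxa2 (0.049, after Nrarp at 0.044 and Eif1a at 0.048). The next nearest to Anxa1 were S100a16 (0.056) and Nrarp (0.058). Anxa8 was nearest to Apobec1 (0.039), Cdc42se2 (0.049) and Irf7 (0.057). Anxa5 was nearest to Chd9 (0.059), Dnajc10 (0.066) and Apaf1 (0.068), and Anxa4 to Cyfip1 (0.019), Ppp4r2 (0.022) and Nckap1 (0.022). For Anxa11 the nearest were Trp53 (0.028), Smyd2 (0.028) and Plcd1 (0.029), for Anxa3 they were Cmas (0.018), Rhoa (0.019) and Mtch1 (0.019), and for Anxa13 they were Zfp65 (0.098), Cir1 (0.101) and Ccdc28a (0.104). A gene that varies little, such as Anxa3, is near many others by this measure.

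S100a11 did not follow that pattern. It had 286 and 303 CPM in DSS-treated KO, 150.0 and 153 CPM in DSS-treated WT, 130 and 130 CPM in untreated KO, and 111 and 106 CPM in untreated WT. It was higher in KO under DSS (log2 fold-change = 0.96 ± 0.04, adjusted p = 1.28e-09) and untreated (0.26 ± 0.05, adjusted p = 0.00191), and its DSS rise was larger in KO by 0.70 ± 0.07 (adjusted p = 4.96e-06). Its expected counts were not whole, as RSEM writes where reads can come from more than 1 gene, so its level is less certain than that of S100a10.

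**Figure D4:**
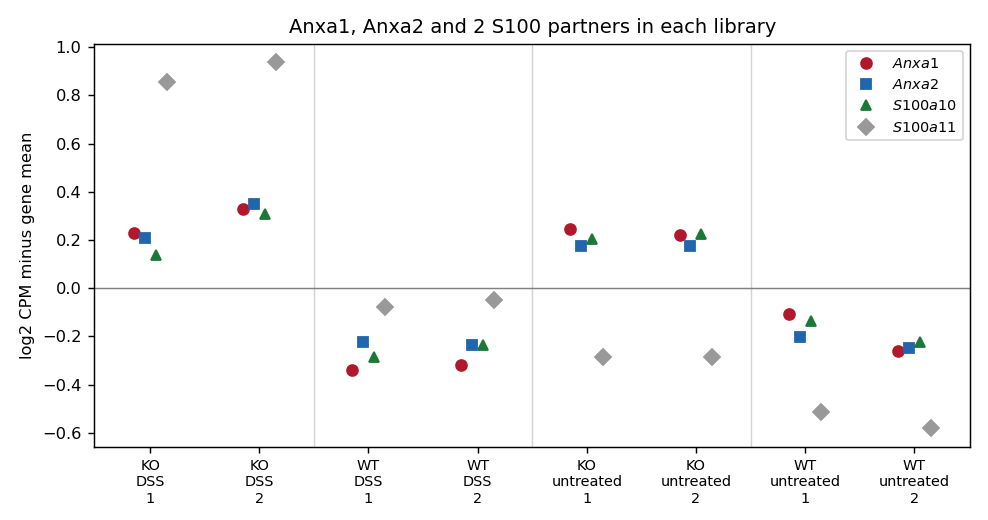
log2 CPM minus the gene's own mean over 8 libraries (y axis) for Anxa1, Anxa2, S100a10 and S100a11 in each library (x axis). Anxa1, Anxa2 and S100a10 lie above 0 in all 4 KO libraries and below 0 in all 4 WT libraries, and S100a11 is highest in the 2 DSS-treated KO libraries.

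Of the list of annexin-binding S100 and linker genes 7 of 8 were tested (Dysf was too low), and in KO 4 were higher and 0 lower under DSS (21.3% and 17.7% of all genes tested) and 4 higher and 0 lower without DSS (9.19% and 6.22%). S100a10, S100a11 and Myof passed under both treatments, while the calcium sensor gene Pdcd6 passed under DSS and not without it (0.26 ± 0.06, adjusted p = 0.00494, against -0.10 ± 0.06, adjusted p = 0.348). S100a6 and S100a4 passed in neither. Ahnak, a giant scaffold recruited by the Anxa2 and S100a10 complex, was higher in untreated KO (0.49 ± 0.06, adjusted p = 0.000134) and not in DSS-treated KO (-0.02 ± 0.06, adjusted p = 0.814). Myof, a ferlin of membrane fusion, was higher in KO under DSS (0.24 ± 0.05, adjusted p = 0.00245) and untreated (0.38 ± 0.06, adjusted p = 0.000329). S100a6 fell under DSS in KO (-0.49 ± 0.05, adjusted p = 3.12e-06) and in WT (-0.56 ± 0.05, adjusted p = 1.59e-06).

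Of 8 genes of the cell-surface plasminogen system 4 were tested, and under DSS the KO libraries had 3 of them higher and 0 lower (21.3% and 17.7% of all genes tested). Plat, tissue plasminogen activator, had 11.3 and 10.6 CPM in DSS-treated KO, against a mean of 1.10 ± 0.110 CPM in DSS-treated WT (SD, n = 2; log2 fold-change = 3.31 ± 0.21, adjusted p = 2.57e-08). Plaur, the urokinase receptor, had 19.2 and 20.9 CPM in DSS-treated KO, against 6.97 and 8.07 CPM in DSS-treated WT (1.41 ± 0.11, adjusted p = 1.20e-07). Both genes were highest in the 2 DSS-treated KO libraries. Without DSS, Plaur was higher in KO (0.65 ± 0.15, adjusted p = 0.00824), Plgrkt, a plasminogen receptor, was lower (-0.22 ± 0.06, adjusted p = 0.0174), and Plat did not pass (8 counts in untreated KO and 9 in untreated WT).

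Fpr1 and Fpr2, receptors for the Anxa1 peptide that are carried by neutrophils and macrophages, had 94 and 77 counts over the 2 DSS-treated KO libraries, against 7 and 6 counts over the 2 DSS-treated WT libraries. Both had 0 counts in all 4 untreated libraries. Of the 7 genes of this receptor and glucocorticoid list 6 were tested, with 3 higher and 1 lower in KO under DSS (21.3% and 17.7% of all genes tested) and 3 higher and 0 lower without (9.19% and 6.22%). Fpr1 and Fpr2 passed the filter on low counts only through DSS-treated KO, where they were highest. Both are among the 3 higher under DSS, so that count is not comparable with the share of all genes. Tsc22d3, a glucocorticoid-induced leucine zipper gene, was higher in untreated KO (0.34 ± 0.06, adjusted p = 0.000846) and not in DSS-treated KO (-0.02 ± 0.06, adjusted p = 0.791), whereas Fkbp5, another glucocorticoid target, was higher in KO under DSS (0.44 ± 0.04, adjusted p = 2.21e-06) and untreated (0.14 ± 0.04, adjusted p = 0.0337).

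Among 12 membrane repair genes tested of 13, 3 were higher and 0 lower in KO under DSS, and 3 higher and 1 lower without DSS, where 21.3% and 17.7% of all genes tested were called under DSS and 9.19% and 6.22% without. The share higher under DSS is near that of all genes. Capns1, the small calpain subunit, rose under DSS in KO (0.24 ± 0.04, adjusted p = 0.000518) and in WT (0.25 ± 0.04, adjusted p = 0.000619). All 8 genes of phosphatidylserine exposure were tested, and in KO 3 were higher and 1 lower under DSS (21.3% and 17.7% of all genes tested). Without DSS 1 was higher and 0 lower (9.19% and 6.22%). In either direction 39.1% of all genes tested were called under DSS and 15.4% without. Ano6, a calcium-activated scramblase, was higher in DSS-treated KO than in DSS-treated WT (0.69 ± 0.06, adjusted p = 1.05e-06), as was the scramblase gene Plscr1 (0.37 ± 0.06, adjusted p = 0.000137). Of the 2 mouse annexins outside the 10 members, Anxa7 passed in no comparison, with group means of 232 CPM in DSS-treated KO, 247 CPM in DSS-treated WT, 245 CPM in untreated KO and 258 CPM in untreated WT. Anxa9 had 19 counts in DSS-treated KO, 27 in DSS-treated WT, 13 in untreated KO and 9 in untreated WT, and rose under DSS in WT (1.72 ± 0.56, adjusted p = 0.0259). It passed the filter on low counts only through DSS-treated libraries, so the test of that rise is not independent of the filter.

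Markers of other cells moved with some of these results. Of 12 neutrophil markers, 10 and 11 had counts in the DSS-treated KO libraries, with summed levels of 206 and 221 CPM, against 8 and 8 and sums of 10.3 and 11.4 CPM in DSS-treated WT. In untreated KO the sums were 0.318 and 0.367 CPM, against 0.601 and 0.168 CPM in untreated WT, and S100a8 and Retnlg were at 0 in all 4 untreated libraries. The part of neutrophil RNA in the KO rises of Anxa1, Anxa2 and Anxa8 was not tested, under DSS or without it.

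Macrophage markers summed to 162 and 172 CPM in DSS-treated KO, 76.0 and 75.3 CPM in DSS-treated WT, 48.9 and 51.2 CPM in untreated KO, and 48.7 and 50.8 CPM in untreated WT. Between 10 and 12 of the 12 genes had counts in each library. Cd14 made up most of the sum, and without it the other 11 genes summed to 56.3 and 59.7 CPM in DSS-treated KO, 28.8 and 27.5 CPM in DSS-treated WT, 9.21 and 8.88 CPM in untreated KO, and 9.21 and 10.1 CPM in untreated WT. The part of macrophage RNA in the Anxa5 rise under DSS and in the KO rises under DSS was not tested. Of 8 fibroblast markers 6 were tested, and in KO 4 were higher and 0 lower under DSS (21.3% and 17.7% of all genes tested). Without DSS 2 were higher and 0 lower (9.19% and 6.22%). Col1a1 and Col6a2 reached the filter on low counts only with the DSS-treated KO libraries, so the count under DSS is not comparable with that share. They summed to 13.4 and 12.6 CPM in DSS-treated KO, 6.13 and 6.54 CPM in DSS-treated WT, 11.7 and 12.9 CPM in untreated KO, and 8.21 and 7.79 CPM in untreated WT, with 6 to 8 of the 8 genes at a count in each library. Among them Dcn, the decorin gene, was higher in KO under DSS (0.60 ± 0.17, adjusted p = 0.0118) and untreated (0.60 ± 0.14, adjusted p = 0.00804), and the part of fibroblast RNA in the KO rises of Anxa1, Anxa2 and Anxa8 was not tested.

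Squamous epithelium markers, of interest for Anxa1 and Anxa8, summed to 9.32 and 6.98 CPM in DSS-treated KO, 4.81 and 4.89 CPM in DSS-treated WT, 5.59 and 7.04 CPM in untreated KO, and 5.06 and 4.54 CPM in untreated WT. The squamous keratin Krt5 was at 0 in every library. Of these 10 markers 5 were tested, and in KO 3 were higher and 0 lower under DSS (21.3% and 17.7% of all genes tested). Without DSS 1 was higher and 0 lower (9.19% and 6.22%). Dsg3 passed the filter on low counts only through DSS-treated KO. Krt14 was higher in KO under DSS (0.83 ± 0.28, adjusted p = 0.0310) and untreated (1.13 ± 0.28, adjusted p = 0.0152). Sbsn and Lor had lower means in KO under both treatments and did not pass. All 10 colon epithelium markers were tested, and in KO 3 were higher and 1 lower under DSS (21.3% and 17.7% of all genes tested). Without DSS 5 were higher and 0 lower (9.19% and 6.22%). Whether the levels of these epithelial markers bear on the KO rises of Anxa1, Anxa2 and Anxa8 was not tested.

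**Figure D5:**
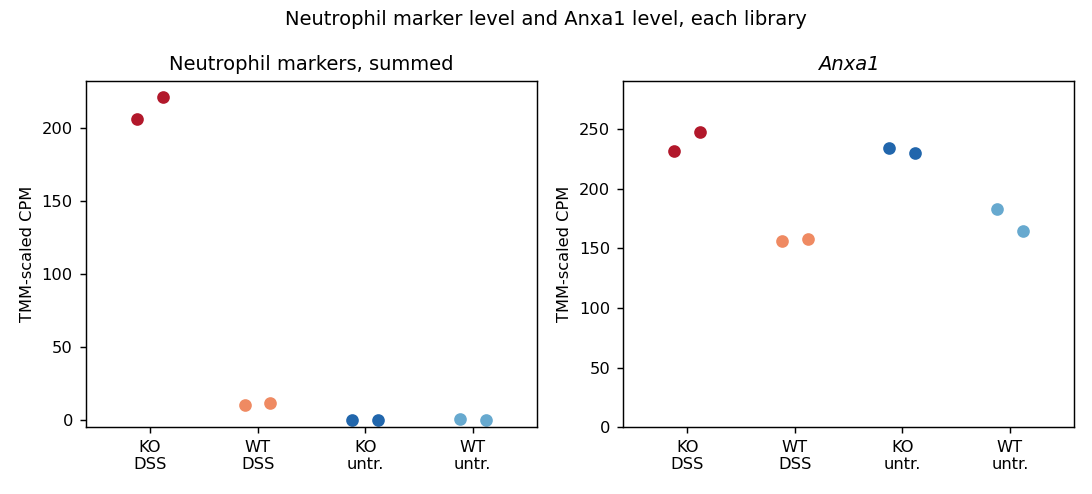
Summed CPM of 12 neutrophil markers (left) and CPM of Anxa1 (right), with 1 point per library. The neutrophil sum is 206 and 221 CPM in DSS-treated KO and under 1 CPM in untreated libraries, while Anxa1 is 231 and 248 CPM in DSS-treated KO and 234 and 230.0 CPM in untreated KO.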

How the data were processed

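The authors deposited, per the file headers, an RSEM expected count, a TPM value corrected for effective length, and an effective length per gene and library. Build mm10 and the tools RSEM 1.3.0, STAR 2.5.3a and DESeq2 1.18.1 are listed, per the submitters' processing notes. Options, annotation release and strand setting are not given in the sources used here. The antisense genes Gm16144 and Anxa11os overlap exons of Anxa2 and Anxa11 and held 108 and 67 counts over all libraries, and without strand their reads cannot be told apart.

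Expected counts were rounded, filtered with filterByExpr (14991 genes left), scaled with TMM and fitted in edgeR 4.0.16 (R 4.3.3) by quasi-likelihood, with 1 mean for each group and all 8 libraries in 1 model. P-values are two-sided, adjusted by Benjamini-Hochberg over all genes of a comparison, with a threshold of 0.05. SE is the absolute log2 fold-change over the square root of the F statistic. Levels beside fold changes are TMM-scaled CPM, and TPM is used between genes. Interval and floor of a 0 count cover counting error only. Positions are from GENCODE M21 (mm10), which held Anxa1 with a later version of its identifier. The procedure was tested on simulated data.

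Members, gene lists and tests were chosen with earlier results of these data known. The text names all members, Rora, Anxa7 and Anxa9, listed partner and marker genes, and the 3 nearest genes of each member with a mean of at least 5 CPM. Alternatives were DESeq2 1.42.0, RLE factors, library totals, no filter, length offsets, only the groups compared, a replicate block and each library left out.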

Additional observations from a re-analysis of the deposited data

Results flagged for a closer look

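None of the 10 annexins was flagged. Among 37 tested genes of the partner lists, with Anxa7 and Anxa9 counted in, 15 passed the interaction test (40.5%, against 21.4% of all genes tested). Those lists were chosen with earlier results of these data known, so the share is not independent of these data. The difference is given here as the KO response to DSS less the WT response on the log2 scale (edgeR). The difference was positive for Plat (3.25 ± 0.70, SE, adjusted p = 0.00494), which rests on 8 counts in untreated KO and 9 in untreated WT. It was 0.76 ± 0.19 for Plaur (adjusted p = 0.0101), 0.72 ± 0.06 for the enolase gene Eno1 (adjusted p = 1.29e-06), whose counts were not whole, and 0.70 ± 0.07 for S100a11 (adjusted p = 4.96e-06). Trim72 stood at 0.60 ± 0.20 (adjusted p = 0.0453), Ano6 at 0.53 ± 0.09 (adjusted p = 0.00101) and Plscr1 at 0.37 ± 0.08 (adjusted p = 0.00550). Pdcd6 stood at 0.35 ± 0.09 (adjusted p = 0.0120), Fkbp5 at 0.30 ± 0.06 (adjusted p = 0.00312) and Chmp4b at 0.24 ± 0.07 (adjusted p = 0.0302). Negative differences were those of Ahnak (-0.51 ± 0.09, adjusted p = 0.00129), Nr3c1, the glucocorticoid receptor gene (-0.48 ± 0.09, adjusted p = 0.00134), Tsc22d3 (-0.36 ± 0.08, adjusted p = 0.00694), Atp11a (-0.34 ± 0.10, adjusted p = 0.0225) and Capn1 (-0.20 ± 0.06, adjusted p = 0.0272).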

How the results depend on the processing

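Of 45 member log2 fold-changes, 24 kept their direction and their side of the threshold under every alternative run. The 4 annexins lower under DSS in WT became 2 with DESeq2, with effective-length offsets and with library totals in place of TMM, and ranged from 2 to 4 with a library left out. The 2 higher under DSS in KO became 4 with library totals (2 to 3 with a library left out). The 1 lower in KO under DSS became 0 with DESeq2 (0 to 1 with a library left out), where the 5 higher ranged from 4 to 6. The 0 higher for the interaction became 1 with no filter (0 to 3 with a library left out). The 4 higher in untreated KO ranged from 3 to 4. The cause of these changes was not tested.

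Signs changed under these alternatives only for values that had not passed the test. With library totals, Anxa3 under DSS in KO was 0.043 and Anxa2 under DSS in WT was 0.034 (0.018 with length offsets). Anxa3 in untreated KO against WT was -0.0031 with DESeq2, -0.0031 with RLE factors, -0.012 with no filter, -0.011 with length offsets and -0.0096 with only the groups compared. With a library left out the ranges were -0.022 to 0.027 for that value, -0.0039 to 0.093 for Anxa1, -0.056 to 0.030 for Anxa3 and -0.19 to 0.057 for Anxa13 under DSS in KO, -0.022 to 0.019 for Anxa2 and -0.062 to 0.26 for Anxa13 under DSS in WT, and -0.013 to 0.025 for Anxa4, -0.086 to 0.00031 for Anxa8 and -0.32 to 0.0029 for Anxa13 in the interaction.

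Over all genes, with a library left out, calls in untreated KO ran from 631 to 1866 higher and from 319 to 1462 lower. With all libraries, higher and lower calls in untreated KO (1378 and 932) were 748 and 498 with DESeq2, 786 and 504 with length offsets, and 1529 lower with only those groups. Those of DSS in WT (2834 and 2739) were 1808 and 1601 with DESeq2, the 2657 lower in KO under DSS were 1648, and those of the interaction (1613 and 1595) were 856 and 828 with DESeq2 and 882 and 912 with length offsets.

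Same-numbered libraries showed little common deviation (r of replicate differences from -0.11 to 0.08 between groups), which cannot exclude that replicate numbers pair samples. The labels state no pairing. With the replicate block Anxa1 under DSS in WT was -0.15 and no longer passed, and no other member call changed. With the untreated WT numbers crossed in the block, an alternative added after seeing the data, as were library totals, 3 annexins were higher and 4 lower under DSS in WT. In CPM in place of TPM, 2 annexins changed rank in each DSS-treated group and 3 in each untreated group. Depth limits Anxa6 and Anxa13, with at most 10.1 CPM, and Anxa10.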

Other observations

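Anxa2 is a close neighbour of the deleted gene. On mm10 its start lies 65.4 kb beyond the end of Rora on chromosome 9, on the same strand, with Ice2, a subunit of the little elongation complex, between them. The neighbourhood was examined after the Anxa2 values were seen. Protein-coding genes within 1000 kb of Rora went both ways in KO. Ice2, 9.66 kb from Rora, was lower in KO under DSS (log2 fold-change = -0.37 ± 0.09, SE, edgeR adjusted p = 0.00688) and did not pass untreated (-0.22 ± 0.09, adjusted p = 0.125). Bnip2, 601 kb away, passed in neither (0.06 ± 0.07, adjusted p = 0.508, and 0.06 ± 0.07, adjusted p = 0.643). Gcnt3, a mucin glycosyltransferase gene 643 kb away, was lower in KO under DSS (-0.57 ± 0.05, adjusted p = 3.29e-07) and higher in untreated KO (0.35 ± 0.05, adjusted p = 0.000126). Gtf2a2, 624 kb away, was higher under DSS (0.25 ± 0.07, adjusted p = 0.00770) and did not pass untreated (-0.04 ± 0.07, adjusted p = 0.728). C2cd4a and C2cd4b, 821 and 893 kb away, were higher under DSS (0.79 ± 0.19, adjusted p = 0.00449, and 1.10 ± 0.18, adjusted p = 0.000206) and did not pass untreated (0.56 ± 0.19, adjusted p = 0.0589, and -0.49 ± 0.17, adjusted p = 0.0794). Of the tested neighbours, Anxa2 alone passed as higher in KO under both treatments. Whether its place beside the floxed locus bears on its level was not tested.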
